A study of Mus musculus with 30 samples.

Results

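The transcripts described here encode 35 components of the signalling route that insulin uses inside the cell, from the lipid kinase PI3K through AKT and mTOR, with the RAS and MAP kinase branch beside it. They were chosen by name, as a fixed list of mouse gene symbols matched to the Ensembl identifiers of the count files. All 35 were found among the 49089 identifiers, and 34 of them passed the filter on low counts that left 11368 genes for testing. The gene that did not pass was Pik3cd, a catalytic PI3K subunit best known from leukocytes, with 0 to 1 counts in each sample and 7 counts in all 30 samples together.

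RNA was sequenced from AML12 cells, a hepatocyte line derived from a mouse that carried a transgene for human TGFα, and the study asked how the forkhead factors FoxK1 and FoxK2 act on gene expression with and without insulin. The cells had received a non-targeting siRNA (Control), an siRNA against FoxK1 (FoxK1 KD), one against FoxK2 (FoxK2 KD), or both (double knockdown, DKD). All cells were starved of serum overnight, and were then either left without insulin (basal) or given 100 nM insulin for 6 h. Each of the 8 groups held 4 samples, except Control with insulin and DKD with insulin, which held 3. The knockdowns were transient and partial, every sample came from the same cell line, and the labels do not say whether replicates were separate cultures, so p-values measure the spread between these samples, which may be technical.

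Insulin binds its receptor, which recruits PI3K, and the lipid that PI3K makes draws PDK1 and AKT to the membrane. AKT phosphorylates GSK3 and the TSC complex, and through the small GTPase RHEB this releases mTORC1, which acts on 4E-BP proteins and S6 kinase to raise translation. A parallel branch runs from the adaptors SHC1 and GRB2 and the exchange factor SOS1 to RAS, the MEK kinases (Map2k1, Map2k2) and ERK1 (Mapk3). In hepatocytes these routes are known for the control of glucose output, lipid synthesis and growth. Most of their control works through phosphorylation and location of proteins, which RNA counts do not measure.

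Promoter windows were searched for the forkhead letters GTAAACA because the depleted proteins are forkhead factors. Windows run from 250 bases before to 50 bases after an annotated transcript start, come from RefSeq on GRCm38.p6, and were found for 31 members with 48 windows, with none matched for Sgk3, Eif4ebp1, Mapk3 and Deptor. The letters were searched on both strands, so that TGTTTAC also counted. They were present in 2 of the 48 member windows (4.17%) and in 3.65% of all 32851 windows. The shorter run TAAACA, which every GTAAACA contains, was present in 4 of the member windows (8.33%, those of Akt1, Akt2, Nras and Map2k2) and in 13.4% of all windows. The windows of Akt1 (chr12:112674835-112675134, minus strand) and Nras (chr3:103058035-103058334, plus strand) held the longer run and are shown with it in capitals, 161 and 188 bases before the start. Neither gene was called in any comparison of a knockdown with Control. Of the members with only the shorter run, Akt2 was not called in such a comparison either. Map2k2 was called higher in DKD without insulin (log2 fold change 0.43). The windows of Sgk1 (chr10:21994416-21994715, plus strand) and Pik3r3 (chr4:116221166-116221465, plus strand) are shown because both genes moved with insulin in every genotype. They are the most GC-rich of the 6 and 3 windows of those genes, hold neither run, and have the annotated start base in capitals.
Akt1: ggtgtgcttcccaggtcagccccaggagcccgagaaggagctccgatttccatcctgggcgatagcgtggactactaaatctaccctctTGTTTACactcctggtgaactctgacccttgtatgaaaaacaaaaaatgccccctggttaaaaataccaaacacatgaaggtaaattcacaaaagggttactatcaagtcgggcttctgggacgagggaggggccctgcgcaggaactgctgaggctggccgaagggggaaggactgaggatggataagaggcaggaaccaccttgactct
Nras: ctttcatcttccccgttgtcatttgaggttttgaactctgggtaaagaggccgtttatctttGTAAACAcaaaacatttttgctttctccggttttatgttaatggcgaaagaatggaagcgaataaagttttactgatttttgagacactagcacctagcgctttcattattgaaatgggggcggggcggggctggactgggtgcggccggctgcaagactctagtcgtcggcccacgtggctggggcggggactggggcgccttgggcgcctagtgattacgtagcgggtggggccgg
Sgk1: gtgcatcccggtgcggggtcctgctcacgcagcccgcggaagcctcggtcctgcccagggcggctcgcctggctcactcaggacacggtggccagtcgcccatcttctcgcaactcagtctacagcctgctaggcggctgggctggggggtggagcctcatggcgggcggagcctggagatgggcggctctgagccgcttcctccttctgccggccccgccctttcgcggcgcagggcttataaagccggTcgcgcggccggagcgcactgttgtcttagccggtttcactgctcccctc
Pik3r3: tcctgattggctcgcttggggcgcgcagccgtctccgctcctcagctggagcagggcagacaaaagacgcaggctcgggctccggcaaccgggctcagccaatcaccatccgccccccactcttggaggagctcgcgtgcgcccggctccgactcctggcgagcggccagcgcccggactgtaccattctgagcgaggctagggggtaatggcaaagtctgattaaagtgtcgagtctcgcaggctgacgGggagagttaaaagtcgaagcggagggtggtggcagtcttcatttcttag

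Libraries held 2141460 to 5668270 counts, of which the 35 members took 0.310% to 0.357%. Foxk1 stood at 45.2% to 64.6% of its Control level in the groups that received its siRNA and Foxk2 at 33.7% to 40.4%, without overlap of samples in any of those comparisons. Of the hepatocyte markers, Krt8, Krt18, Hnf4a and Foxa2 were well detected. Alb had group means of 6.07 to 20.3 CPM (counts scaled to the TMM-normalised library size) and Apoa1 stayed under 1 CPM. Krt18 and Krt8, with group means of 919 to 1388 and 512 to 886 CPM, made up most of the hepatocyte sum. The highest group means of the rest were 45.6 CPM for Ttr, 27.8 for Serpina1a, 21.2 for Trf, 6.42 for Afp and 2.39 for Apoe. The stellate and endothelial lists summed to at most 1.39 and 0.550 CPM in any library. The cholangiocyte list had group means of 565 to 837 CPM (Krt19, Sox9 and Krt7, with Epcam at 0), and the macrophage list of 5.27 to 19.8 CPM, most of it Csf1r, with Adgre1 at 0. Over single libraries the macrophage sum moved with the groups: it lay at 8.22 to 12.9 CPM in Control without insulin and 4.09 to 6.33 CPM with it, at 17.7 to 22.1 and 10.45 to 13.7 CPM in FoxK1 KD, at 11.1 to 13.4 and 4.10 to 6.61 CPM in FoxK2 KD, and at 15.7 to 17.97 and 6.63 to 9.51 CPM in DKD. The hepatocyte sum went without overlap from 1697 to 1845 CPM before insulin to 2048 to 2386 CPM after it in FoxK1 KD, and from 2347 to 2439 CPM to 1860.0 to 2224 CPM in DKD. The cholangiocyte sum went from 534 to 609.8 CPM to 636 to 756 CPM in FoxK1 KD and from 622 to 723 CPM to 725 to 869 CPM in FoxK2 KD, and in FoxK1 KD without insulin it lay below Control (639 to 1073 CPM). What part these genes have in the results was not tested. In these bulk samples, fewer cells of a type and less RNA per cell cannot be told apart.

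The libraries also fell into sets that the labels do not name. In the 12 basal libraries of Control, FoxK1 KD and FoxK2 KD, the pseudogene transcripts Rps2-ps10, Gm13668 and Gm42939 lay at 0 to 0.66, 0 to 0.33 and 0 to 0.28 CPM. In the other 18 libraries they lay at 2.87 to 17.4, 0.22 to 5.91 and 4.43 to 13.5 CPM. The effect of insulin in Control, FoxK1 KD and FoxK2 KD, the basal effect of DKD, and the DKD insulin effect minus that in Control therefore run across this divide and cannot be told apart from it. In the differences of insulin effects between a single knockdown and Control, both effects run across it in the same way. The effect of insulin in DKD, the knockdown effects after insulin, and the basal effects of the single knockdowns lie within 1 side. Control basal replicate 1 also stood apart: it was the lowest or the highest of the 4 Control basal libraries for 26 of the 34 members, against 9 to 18 for the others, and for 73.5% of all genes tested, against 37.3% to 46.3%.

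Without insulin, ERK1 (Mapk3) had the highest transcript level per length of the set, at 165 CPM per kilobase of exon in Control. It was followed by the MEK gene Map2k1 at 69.98, Akt1 at 51.03 and Nras at 47.1 CPM per kilobase. Sgk3 (4.42), the mTORC2 subunit Rictor (4.58) and Mtor (5.07 CPM per kilobase) had the lowest levels among the members tested. Levels varied little between groups: the highest of the 8 group means exceeded the lowest by a median of 1.37-fold, and stayed within 1.5-fold for 27 of the 34 members. Deptor (3.33-fold), Sgk1 (2.50-fold) and Pik3r3 (2.42-fold) varied most.

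**Figure D1:**
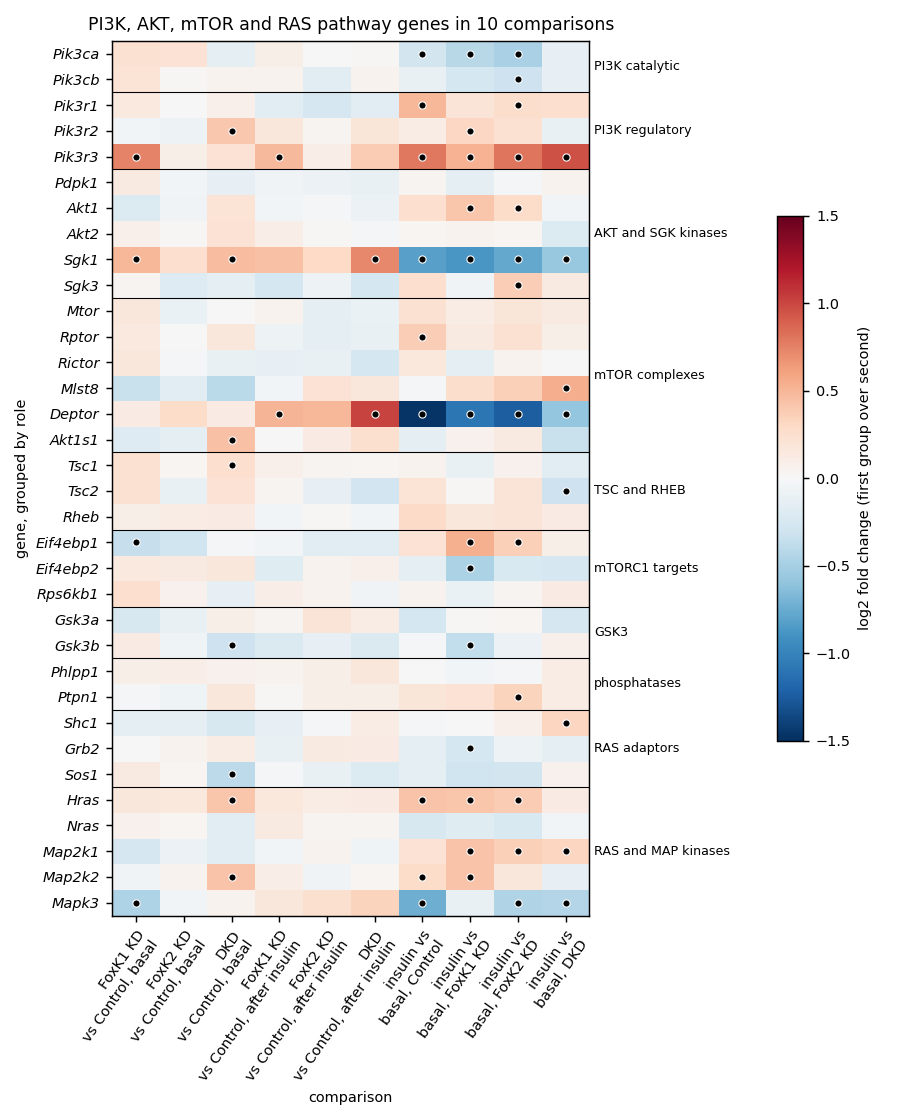
Log2 fold change of each of the 34 tested members (rows, grouped by role) in each of 10 comparisons (columns: 6 of a knockdown with Control, 4 of insulin with basal), on a colour scale in log2 units, with a dot on those called at an adjusted p below 0.05. The columns of insulin effects hold the deepest colours, with Deptor at -1.47 in Control and Pik3r3 at 0.96 in DKD, and the columns of FoxK2 KD against Control hold no dot.

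Insulin changed 9 of the 34 members in Control cells, 13 in FoxK1 KD, 13 in FoxK2 KD and 8 in DKD. Deptor, which encodes an inhibitory subunit of both mTOR complexes, and Sgk1, an AKT-related kinase activated downstream of PI3K, fell in all 4 genotypes. Pik3r3, a regulatory PI3K subunit, rose in all 4. Over the whole set, 22 members (64.7%) were called in at least 1 genotype, beside 51.2% of all genes, and 0 in opposite directions, beside 0.484% of all genes. Of all genes tested, 2.81% were called lower and 3.66% higher in all 4 genotypes. Calls are from edgeR's quasi-likelihood test at a Benjamini-Hochberg adjusted p below 0.05 over all genes tested, and fold changes are given as log2 values with their standard errors.

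The effects in Control, FoxK1 KD and FoxK2 KD run across the divide between libraries, and that in DKD does not. The share of members called is given beside that of all genes, and whether the shares differ was not tested. In Control, 5 members rose and 4 fell (26.5% called), where 25.4% of all genes were called, 12.4% higher and 13.1% lower. In FoxK1 KD, 7 rose and 6 fell (38.2%), beside 31.6% of all genes, 16.2% higher and 15.4% lower. In FoxK2 KD, 8 rose and 5 fell (38.2%), beside 28.1% of all genes, 14.4% higher and 13.7% lower. In DKD, 4 rose and 4 fell (23.5%), beside 16.3% of all genes, 8.31% higher and 7.99% lower. The median log2 fold change of the members was 0.043, 0.0044, 0.069 and 0.033 in these genotypes, and that of all genes was -0.011, 0.013, 0.0067 and 0.0046.

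In Control, FoxK1 KD and FoxK2 KD, Deptor had the largest response of the members. In Control it stood at 96.1, 102, 99.98 and 114.5 CPM without insulin and at 34.3, 42.4 and 35.8 CPM with insulin. Every basal sample lay far above every insulin sample. The log2 fold change was -1.47 ± 0.11, adjusted p = 3.3e-12. In DKD it stood at 115, 109, 115 and 112 CPM without insulin and at 72.2, 73.5 and 80.9 CPM with it. The samples again did not overlap, but the distance was smaller, with a log2 fold change of -0.58 ± 0.10, adjusted p = 9.1e-05. FoxK1 KD samples held 112, 111, 119.5 and 106 CPM before and 50.2, 53.8, 60.5 and 48.2 CPM after insulin (-1.08 ± 0.097, adjusted p = 2.8e-10). FoxK2 KD samples held 132, 119, 125 and 123.5 CPM before and 60.0, 60.5, 42.2 and 47.9 CPM after insulin (-1.24 ± 0.093, adjusted p = 4.7e-12). In each genotype the lowest basal sample was above the highest insulin sample. Deptor shares 3.41% of its exon bases with Gm9920, a gene on the opposite strand, which had a mean of 0.0698 CPM.

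Sgk1 fell with insulin as well. Control samples held 72.0, 49.5, 59.0 and 64.1 CPM without insulin and 38.0, 32.2 and 33.3 CPM with it. All 3 insulin samples lay below the lowest basal sample, and the log2 fold change was -0.82 ± 0.12, adjusted p = 5e-06. In FoxK1 KD the values were 79.9, 92.1, 94.6 and 78.1 CPM before and 49.9, 43.3, 55.9 and 39.0 CPM after insulin (-0.88 ± 0.11, adjusted p = 2e-07). In FoxK2 KD they were 74.7, 72.2, 65.9 and 77.6 CPM before and 40.3, 50.3, 39.4 and 40.6 CPM after insulin (-0.76 ± 0.11, adjusted p = 1.5e-06). In DKD they were 88.4, 83.2, 87.5 and 79.6 CPM before and 55.6, 57.3 and 57.7 CPM after insulin (-0.57 ± 0.11, adjusted p = 0.00053). No basal sample of any genotype overlapped the insulin samples of the same genotype. Sgk3, the other SGK kinase of the set, rose in FoxK2 KD only among the 4 genotypes (0.37 ± 0.11, adjusted p = 0.0097), and whether this differed from Control gave an adjusted p of 0.957.

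Among the regulatory PI3K subunits, Pik3r3 rose with insulin. Control samples held 26.9, 33.8, 28.3 and 29.5 CPM before insulin and 49.0, 49.0 and 55.6 CPM after it. The lowest insulin sample was well above the highest basal one, and the log2 fold change was 0.79 ± 0.13, adjusted p = 3.6e-05. DKD samples held 35.6, 27.6, 36.1 and 38.3 CPM before and 63.2, 66.6 and 70.5 CPM after insulin (0.96 ± 0.13, adjusted p = 2.8e-06). FoxK2 KD samples held 30.2, 31.3, 32.2 and 32.1 CPM before and 58.4, 59.7, 42.5 and 58.9 CPM after insulin (0.80 ± 0.12, adjusted p = 6.7e-06). In FoxK1 KD, where basal samples already held 40.0, 62.4, 52.5 and 46.0 CPM, the insulin samples at 71.7, 58.6, 77.5 and 78.3 CPM overlapped them, with a log2 fold change of 0.52 ± 0.12, adjusted p = 0.0011. A protein-coding gene on the same strand, Gm49337, shares 24.3% of the exon bases of Pik3r3. It was not among the identifiers counted, so reads of the 2 genes cannot be told apart in those bases.

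Pik3r1, the most widely used regulatory subunit, held 59.8, 77.8, 73.2 and 80.4 CPM in Control without insulin and 101.5, 99.9 and 109 CPM with it. The samples did not overlap, and it rose by 0.50 ± 0.088 on the log2 scale (adjusted p = 5.2e-05). It also rose in FoxK2 KD (0.27 ± 0.083, adjusted p = 0.0142), a call lost without FoxK2 KD basal replicate 3 (0.24, adjusted p = 0.0512). Its log2 fold change was 0.20 ± 0.084, adjusted p = 0.07 in FoxK1 KD and 0.25 ± 0.090, adjusted p = 0.0517 in DKD. With a trend in GC content and length removed, Pik3r1 was called higher in every genotype. The values were 0.50 (adjusted p = 2.2e-06) in Control, 0.33 (0.00037) in FoxK1 KD, 0.33 (0.00036) in FoxK2 KD and 0.21 (0.0472) in DKD. Pik3r2 rose in FoxK1 KD (0.32 ± 0.10, adjusted p = 0.0167), a call lost when any of FoxK1 KD basal replicates 2 and 3 or FoxK1 KD insulin replicate 4 was left out (0.22 to 0.27, adjusted p = 0.0646 to 0.107) and with a trend in GC content and length removed (0.11, adjusted p = 0.383). Both tested catalytic subunits went down where they were called. Pik3ca fell in FoxK1 KD (-0.42 ± 0.088, adjusted p = 0.00043), in FoxK2 KD (-0.48 ± 0.087, adjusted p = 6.3e-05) and in Control (-0.28 ± 0.095, adjusted p = 0.0283). The Control call was lost in 5 of the 7 fits that left out 1 library, Control basal replicates 2, 3 and 4 and Control insulin replicates 2 and 3 (-0.28 to -0.23, adjusted p = 0.0512 to 0.126). Pik3cb fell in FoxK2 KD (-0.31 ± 0.11, adjusted p = 0.0256), and that call was lost in 4 of 8 such fits, FoxK2 KD basal replicate 4 and FoxK2 KD insulin replicates 1, 2 and 4 (-0.30 to -0.26, adjusted p = 0.0527 to 0.107).

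**Figure D2:**
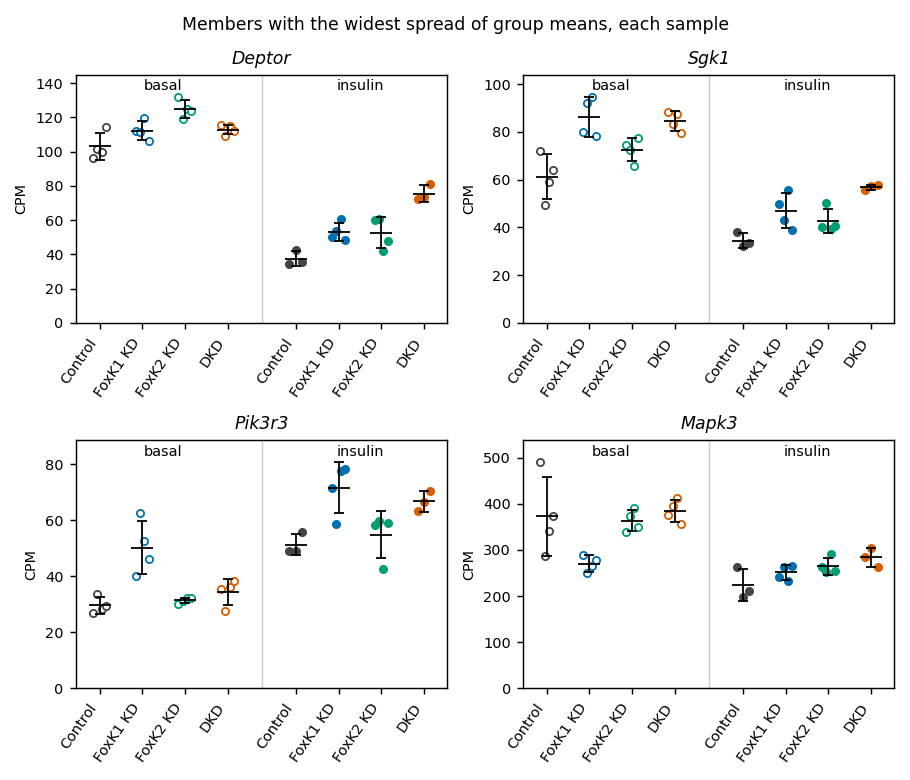
Normalised level in CPM (vertical axes, starting at 0) of Deptor, Sgk1, Pik3r3 and Mapk3 in each of the 30 samples, by genotype and insulin state; points are samples (open basal, filled insulin) and lines are group means with bars of 1 SD. The Deptor mean was 103 ± 7.95 CPM in Control basal and 37.5 ± 4.28 CPM in Control with insulin, and its DKD insulin samples at 72.2 to 80.9 CPM sit between the basal and insulin samples of Control.

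In the MAP kinase branch, Mapk3 fell and the upstream MEK genes rose wherever insulin was called for them. Control samples held 489.9, 286, 342 and 374 CPM of Mapk3 before insulin and 262, 197 and 212 CPM after it. The highest basal value was that of replicate 1, and all basal samples lay above the insulin samples. The log2 fold change was -0.73 ± 0.12, adjusted p = 1e-05, and -0.57 without that replicate. Mapk3 also fell in FoxK2 KD, from 339.9, 373, 390.1 and 349.5 CPM to 262, 252, 292 and 254 CPM (-0.46 ± 0.10, adjusted p = 0.0012). In DKD it fell from 377, 395, 413 and 357 CPM to 284, 305 and 262 CPM (-0.44 ± 0.11, adjusted p = 0.0062). In FoxK1 KD the basal samples at 289, 249, 265 and 279 CPM and the insulin samples at 241, 264, 234 and 266 CPM overlapped, and the log2 fold change was -0.11 ± 0.11, adjusted p = 0.467. The insulin effect in FoxK1 KD minus that in Control was 0.63 ± 0.16, adjusted p = 0.125, which did not pass the threshold.

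Map2k1 rose in FoxK1 KD (0.42 ± 0.085, adjusted p = 0.00026), FoxK2 KD (0.36 ± 0.084, adjusted p = 0.0013) and DKD (0.32 ± 0.091, adjusted p = 0.0137), and had a log2 fold change of 0.22 ± 0.090, adjusted p = 0.07 in Control. The DKD call was lost without DKD insulin replicate 2 (0.31, adjusted p = 0.0512). Map2k2 rose in FoxK1 KD (0.43 ± 0.096, adjusted p = 0.00088) and in Control, where it held 94.4, 81.5, 90.8 and 75.9 CPM before and 109.7, 105 and 94.6 CPM after insulin. The highest basal sample lay just under the lowest insulin sample (0.27 ± 0.10, adjusted p = 0.046), and the call was lost without Control basal replicate 2 or 4 or Control insulin replicate 1 or 2 (0.21 to 0.27, adjusted p = 0.0905 to 0.198). Hras, one of the RAS GTPases, held 31.8, 31.0, 37.2 and 34.5 CPM in Control before insulin and 47.2, 44.2 and 44.0 CPM after it. Its samples did not overlap, and it rose by 0.42 ± 0.14 (adjusted p = 0.0226). That call was lost without Control basal replicate 2 or Control insulin replicate 1 (0.38 to 0.39, adjusted p = 0.0532 to 0.0863). Hras also rose in FoxK1 KD (0.42 ± 0.13, adjusted p = 0.0137) and FoxK2 KD (0.38 ± 0.13, adjusted p = 0.0211). The former was lost without FoxK1 KD insulin replicate 2 (0.35, adjusted p = 0.0631), and the latter without FoxK2 KD basal replicate 1 or 2 or FoxK2 KD insulin replicate 3 (0.27 to 0.34, adjusted p = 0.0713 to 0.131). Both were lost with the trend of GC content and length removed (0.25, adjusted p = 0.136 in FoxK1 KD and 0.27, adjusted p = 0.0867 in FoxK2 KD). Nras was called in no comparison.

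Of the RAS adaptors, Shc1 rose in DKD, from 90.7, 94.2, 103 and 109 CPM to 127, 137 and 109 CPM. The highest basal sample and the lowest insulin sample both stood near 109 CPM without overlapping (0.32 ± 0.11, adjusted p = 0.0352). The call was lost in 5 of the 7 fits that left out 1 library, DKD basal replicates 1, 2 and 3 and DKD insulin replicates 1 and 2 (0.25 to 0.33, adjusted p = 0.0536 to 0.192). Grb2 fell in FoxK1 KD (-0.26 ± 0.090, adjusted p = 0.0256), a call lost without FoxK1 KD basal replicate 4 or FoxK1 KD insulin replicate 1 or 3 (-0.25 to -0.21, adjusted p = 0.0632 to 0.098). Sos1 was not called by insulin in any genotype.

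Among the mTOR complex genes other than Deptor, few moved. Mlst8, a subunit of both complexes, held 20.7, 21.5, 22.7 and 19.0 CPM in DKD before insulin and 28.8, 27.9 and 34.0 CPM after it. The groups did not overlap, and it rose by 0.55 ± 0.18 (adjusted p = 0.0356). The call was lost in 6 of the 7 fits that left out 1 library, all but that without DKD basal replicate 3 (0.45 to 0.59, adjusted p = 0.0526 to 0.159). Mlst8 shares 22.5% of its exon bases with Bricd5, a protein-coding gene on the opposite strand, which was at 0 CPM. Rptor, the mTORC1 scaffold, rose in Control (0.37 ± 0.095, adjusted p = 0.0039), a call lost when only the groups compared entered the fit (0.38, adjusted p = 0.0525). Of the mTORC1 targets that repress translation, Eif4ebp1 rose in FoxK1 KD (0.53 ± 0.099, adjusted p = 0.0001) and FoxK2 KD (0.36 ± 0.096, adjusted p = 0.0049), while Eif4ebp2 fell in FoxK1 KD (-0.47 ± 0.10, adjusted p = 0.00061). The Eif4ebp1 call in FoxK2 KD was lost when genes with at least 1 count in any sample were tested (0.34, adjusted p = 0.0506). Ptpn1, a phosphatase that acts on the insulin receptor, rose in FoxK2 KD (0.33 ± 0.095, adjusted p = 0.008), a call lost with the trend of GC content and length removed (0.22, adjusted p = 0.0558).

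**Figure D3:**
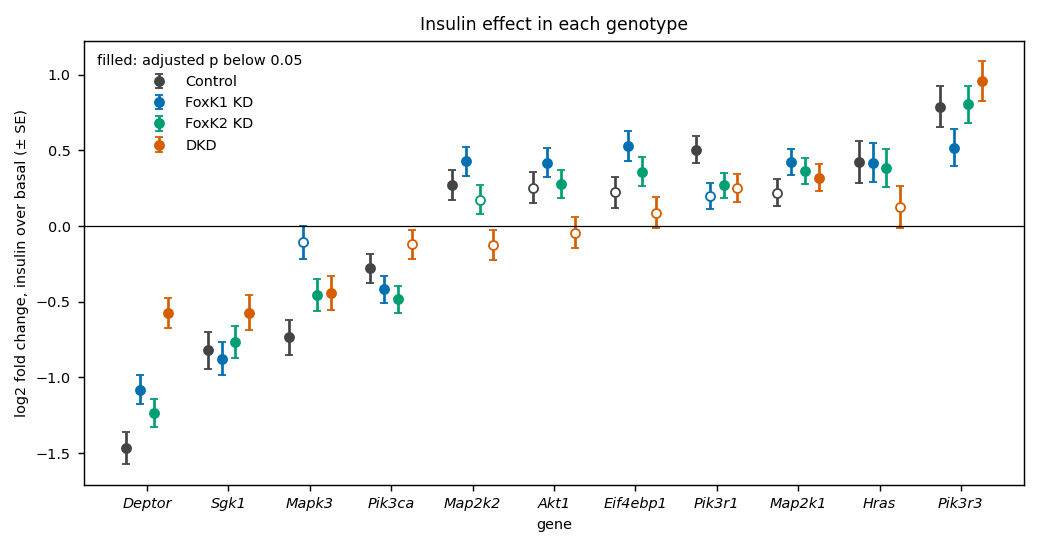
Log2 fold change of insulin against basal (vertical axis, with bars of 1 standard error) for the members called in at least 2 genotypes (horizontal axis), in 1 colour per genotype and filled where called. Deptor lies lowest in Control (-1.47) and closest to 0 in DKD (-0.58), while Pik3r3 lies above 0 in all 4 genotypes (0.52 to 0.96).

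Without insulin, knockdown of FoxK1 raised Pik3r3 and Sgk1 and lowered Mapk3 and Eif4ebp1. These 4 members were 11.8% of the set, beside 8.09% of all genes, 3.39% higher and 4.71% lower, and the members had a median log2 fold change of 0.11 against -0.012 for all genes. Pik3r3 held 40.0, 62.4, 52.5 and 46.0 CPM in FoxK1 KD and 26.9, 33.8, 28.3 and 29.5 CPM in Control, with every knockdown sample above every Control sample (0.75 ± 0.12, adjusted p = 0.00021). For Sgk1, the FoxK1 KD samples given above all exceeded the highest Control sample (0.49 ± 0.10, adjusted p = 0.0023), and the call was lost when only the groups compared entered the fit (0.50, adjusted p = 0.0897). Mapk3 was lower in FoxK1 KD (-0.46 ± 0.10, adjusted p = 0.0051), but the lowest Control sample fell within the range of the knockdown samples. Without Control basal replicate 1 its log2 fold change was -0.30, adjusted p = 0.0532, and the call was lost. Eif4ebp1 held 34.4, 33.7, 31.5 and 28.9 CPM in FoxK1 KD and 37.7, 42.5, 37.2 and 45.0 CPM in Control, without overlap (-0.34 ± 0.096, adjusted p = 0.0221). That call was lost without Control basal replicate 4 or FoxK1 KD basal replicate 3 or 4 (-0.33 to -0.29, adjusted p = 0.0538 to 0.0842). With only the groups compared in the fit, 1 member was called higher and 0 lower, so Mapk3 and Eif4ebp1 lost their calls too.

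Knockdown of FoxK2 alone left no member past the threshold in either state. Without insulin, 0 of 34 were called by edgeR, 0 by DESeq2 and 0 by limma. Of all genes, 0.378% were called by edgeR, 0.211% higher and 0.167% lower. In the edgeR test, 4 of the 34 members and 1272 of the 11368 genes tested had an unadjusted p under 0.05. The median log2 fold change was -0.011 for the members and -0.0088 for all genes. After insulin the counts for FoxK2 KD were again 0 with edgeR, DESeq2 and limma. There 4 of the members and 685 of the 11368 genes tested had an unadjusted p under 0.05 in the edgeR test. Of all genes, 0.0264% were called there, 0.0088% higher and 0.0176% lower, and the medians were 0.033 and 3.96e-07. The widest differences among the members were for Eif4ebp1 without insulin (-0.30 ± 0.094, adjusted p = 0.16) and for Deptor after insulin, whose FoxK2 KD samples at 60.0, 60.5, 42.2 and 47.9 CPM overlapped the Control samples at 34.3, 42.4 and 35.8 CPM.

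Without insulin, double knockdown raised Sgk1, Akt1s1, Map2k2, Hras, Pik3r2 and Tsc1 and lowered Sos1 and Gsk3b. That was 8 of 34 members (23.5%), beside 21.1% of all genes, 10.3% higher and 10.8% lower. The median log2 fold change was 0.086 for the members and -0.00056 for all genes. The called members differed in base composition, taken as the GC content of each gene's longest transcript. The 6 higher members had a median of 57.8% (48.6% to 61.4%) and the 2 lower ones of 43.5%, with 51.5% for the 26 that were not called. When a smooth trend with GC content and length was removed from the counts, 5 members were called. Sgk1 remained higher (0.47, adjusted p = 0.0012) and Gsk3b lower (-0.25, adjusted p = 0.0091), joined by Map2k1 (-0.23, adjusted p = 0.0352), Shc1 (-0.34, adjusted p = 0.0193) and Mlst8 (-0.54, adjusted p = 0.0135). In that fit 16.1% of all genes were called, 7.02% higher and 9.09% lower. This comparison also runs across the divide between libraries.

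**Figure D4:**
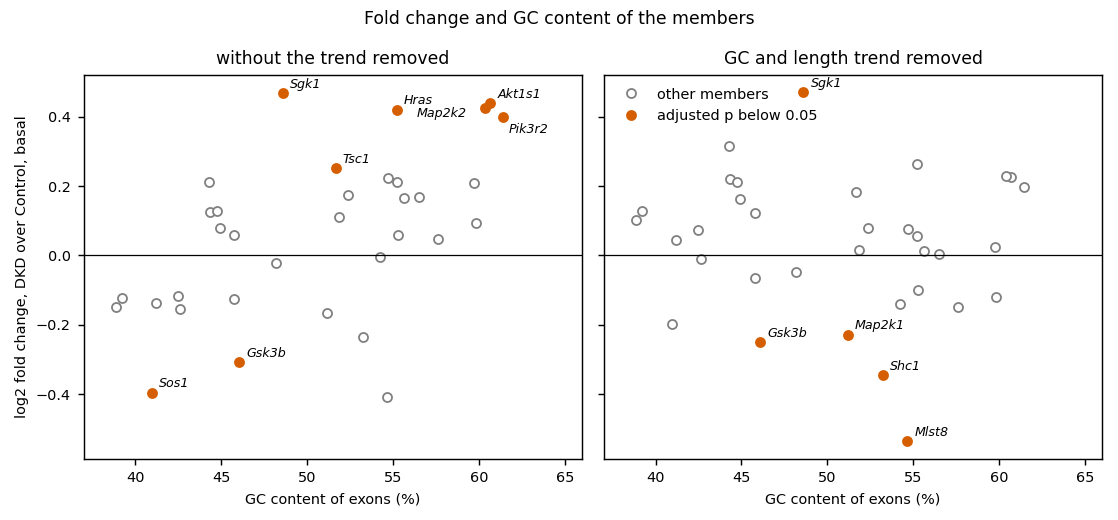
Log2 fold change of DKD against Control without insulin (vertical axes) against the GC content of each gene's longest transcript in percent (horizontal axes) for the 34 tested members. The left panel is without the trend removed and the right panel with the GC and length trend removed. Filled points were called. On the left the 6 members called higher have a median GC content of 57.8% and the 2 called lower lie at 41.0% and 46.1%, while on the right Sgk1 is the 1 member called higher and 4 are called lower.

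Sgk1 held 88.4, 83.2, 87.5 and 79.6 CPM in basal DKD and 72.0, 49.5, 59.0 and 64.1 CPM in basal Control. All DKD samples lay above all Control samples (0.47 ± 0.10, adjusted p = 0.0014), and the value was 0.47, adjusted p = 0.0012 with the trend removed. Akt1s1, which encodes an AKT substrate that inhibits mTORC1, held 85.3, 68.9, 65.7 and 63.9 CPM in DKD and 56.7, 47.5, 48.4 and 57.0 CPM in Control. The groups did not overlap (0.44 ± 0.13, adjusted p = 0.0108), but the highest value was that of DKD basal replicate 1, and the call was lost without it (0.33, adjusted p = 0.0902). It was also lost with the trend removed (0.23, adjusted p = 0.104). Akt1s1 shares 2.90% of its exon bases with Tbc1d17, a protein-coding gene on the opposite strand, at 105 CPM.

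Map2k2 held 124, 112, 109 and 113 CPM in DKD and 94.4, 81.5, 90.8 and 75.9 CPM in Control. The lowest DKD sample was above the highest Control sample (0.43 ± 0.094, adjusted p = 0.0013), and with the trend removed the value was 0.23, adjusted p = 0.0629. Pik3r2 held 90.7, 86.4, 99.0 and 77.8 CPM in DKD and 68.3, 67.0, 66.7 and 64.8 CPM in Control, where the samples lay close together. The groups did not overlap (0.40 ± 0.099, adjusted p = 0.0036), and the call was lost with the trend removed (0.20, adjusted p = 0.134). Hras held 46.2, 41.3, 50.9 and 43.1 CPM in DKD and 31.8, 31.0, 37.2 and 34.5 CPM in Control, again without overlap (0.42 ± 0.13, adjusted p = 0.0185). It lost its call with the trend removed (0.26, adjusted p = 0.145) and without Control basal replicate 2 or DKD basal replicate 1 or 3 (0.36 to 0.40, adjusted p = 0.0526 to 0.0652).

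Sos1, the exchange factor that loads RAS with GTP, held 44.5, 52.6, 58.8 and 58.0 CPM in DKD and 48.2, 80.5, 71.5 and 78.8 CPM in Control. Replicate 1 of Control, at 48.2 CPM, lay within the DKD range and the other 3 above it (-0.40 ± 0.13, adjusted p = 0.0231). The value was -0.54 without that replicate, and the call was lost with the trend removed (-0.20, adjusted p = 0.183) and without Control basal replicate 2 or 4 or DKD basal replicate 1 (-0.33 to -0.32, adjusted p = 0.0884 to 0.106). Tsc1 was higher in DKD with overlapping samples (0.25 ± 0.089, adjusted p = 0.0389). Its call was lost with the trend removed (0.18, adjusted p = 0.0926) and in 5 of the 8 fits that left out 1 library, Control basal replicates 1 and 4 and DKD basal replicates 1, 2 and 4 (0.17 to 0.26, adjusted p = 0.0615 to 0.143).

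After insulin, where all libraries lie on the same side of the divide, Deptor was higher in DKD and in FoxK1 KD. In FoxK2 KD its log2 fold change over Control was 0.50 ± 0.11, adjusted p = 0.088. DKD raised 2 members, Deptor and Sgk1, and lowered 0 (5.88%), beside 1.21% of all genes, 0.871% higher and 0.343% lower. Median log2 fold changes were 0.032 for the members and 0.0057 for all genes. Deptor held 72.2, 73.5 and 80.9 CPM in DKD and 34.3, 42.4 and 35.8 CPM in Control. The lowest DKD sample was far above the highest Control sample (1.02 ± 0.12, adjusted p = 9.9e-07), and this call held in all 6 fits that left out 1 library. Sgk1 held 55.6, 57.3 and 57.7 CPM in DKD and 38.0, 32.2 and 33.3 CPM in Control, with close values in each group and no overlap (0.72 ± 0.13, adjusted p = 0.0018).

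FoxK1 KD after insulin also raised 2 members, Deptor and Pik3r3, and lowered 0 (5.88%), beside 3.59% of all genes, 1.86% higher and 1.72% lower, with medians of 0.028 and 0.0033 on the log2 scale. Deptor samples of FoxK1 KD all lay above those of Control (0.51 ± 0.12, adjusted p = 0.0093), and the call was lost without Control insulin replicate 1 (0.44, adjusted p = 0.077). Pik3r3 samples did not overlap either (0.48 ± 0.13, adjusted p = 0.0312), but the call was lost in 5 of the 7 fits that left out 1 library, Control insulin replicates 1 and 2 and FoxK1 KD insulin replicates 1, 3 and 4 (0.43 to 0.47, adjusted p = 0.0704 to 0.122). Sgk1 had a log2 fold change of 0.44 ± 0.13, adjusted p = 0.051 there.

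The last comparisons asked whether insulin acted to a different extent in a knockdown than in Control, by the difference of the 2 insulin effects. For FoxK1 KD, 0 of 34 members were called by edgeR, 0 by DESeq2 and 0 by limma, and 6 had an unadjusted p under 0.05. Of all genes, 0% were called by edgeR, with 11 by DESeq2, 0 by limma and 1519 at an unadjusted p under 0.05, and the medians were -0.084 for the members and 0.022 for all genes. For FoxK2 KD, 0 members were called by any of edgeR, DESeq2 and limma and 0 had an unadjusted p under 0.05. Of all genes, 0% were called by edgeR, 0 by DESeq2 and 0 by limma, with 625 at an unadjusted p under 0.05, and both medians were 0.013. For DKD, 2 members were called, Deptor and Tsc2 (5.88%), beside 1.54% of all genes, 1% higher and 0.537% lower, with medians of -0.043 for the members and 0.010 for all genes.

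For Deptor the insulin effect in DKD was less negative than that in Control by 0.89 ± 0.15 on the log2 scale (adjusted p = 0.00091). Tsc2, whose product with TSC1 switches RHEB off, went the other way. It held 66.6, 74.0, 64.0 and 62.3 CPM before and 73.3, 75.2 and 81.7 CPM after insulin in Control (0.20 ± 0.089, adjusted p = 0.0922). In DKD it held 69.8, 75.3, 89.3 and 78.3 CPM before and 65.4, 61.9 and 61.2 CPM after insulin. All insulin samples of DKD lay below the basal ones, and it fell there by -0.31 ± 0.091 (adjusted p = 0.0187). The call in DKD was lost without DKD basal replicate 3 or DKD insulin replicate 2 or 3 (-0.30 to -0.25, adjusted p = 0.0613 to 0.0711). The difference of the effects was -0.51 ± 0.13, adjusted p = 0.0337. It was lost in 7 of the 14 fits that left out 1 library (-0.54 to -0.44, adjusted p = 0.0525 to 0.0811), those without replicate 3 or 4 of Control basal, replicate 3 of DKD basal, replicate 2 or 3 of Control insulin, or replicate 2 or 3 of DKD insulin, and with the trend of GC content and length removed (-0.39, adjusted p = 0.094). The Tsc2 difference also lost its call when only the groups compared entered the fit, and when genes with at least 1 count in any sample were tested. Like that of Deptor, it runs across the divide between libraries. Tsc2 shares 7.20% of its exon bases with Pkd1, a protein-coding gene on the opposite strand, at a mean of 34.1 CPM.

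Akt1, Akt2, Mtor, Gsk3a and Gsk3b, the central kinases of the route, had group means within 1.16-fold (Akt2) to 1.38-fold (Akt1) of each other. Akt1 held 254, 184, 189.8 and 209 CPM in Control without insulin and 268, 241 and 238 CPM with it. The groups overlapped through Control basal replicate 1, the highest of the 4 (0.25 ± 0.10, adjusted p = 0.0569). With the trend of GC content and length removed, Akt1 was called higher with insulin in Control (0.27, adjusted p = 0.0247). In FoxK1 KD it rose from 171, 182.5, 181 and 189 CPM to 248, 243, 229.5 and 246 CPM without overlap (0.42 ± 0.094, adjusted p = 0.00086), and the value was 0.21, adjusted p = 0.0725 with the trend of GC content and length removed. In FoxK2 KD it rose from 185, 222, 209 and 189.7 CPM to 241, 207, 277 and 251 CPM with overlap (0.28 ± 0.093, adjusted p = 0.0237). That call was lost with the trend removed (0.15, adjusted p = 0.184) and without FoxK2 KD basal replicate 1 or 4 or FoxK2 KD insulin replicate 3 or 4 (0.21 to 0.26, adjusted p = 0.0545 to 0.115). In DKD it held 224, 239, 273 and 232 CPM before and 261.5, 231 and 210.4 CPM after insulin (-0.044 ± 0.10, adjusted p = 0.815).

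Akt2, the AKT isoform best known for glucose handling, held 55.3, 61.5, 49.1 and 59.1 CPM in Control before and 59.9, 58.5 and 53.4 CPM after insulin. In DKD it held 73.8, 61.1, 69.0 and 58.3 CPM before and 58.0, 57.3 and 55.3 CPM after insulin. Only in DKD, of these 2 genotypes, did the groups not overlap, and the log2 fold changes were 0.025 ± 0.11, adjusted p = 0.896 in Control and -0.20 ± 0.11, adjusted p = 0.216 in DKD. Mtor held 45.4, 55.3, 53.6 and 50.7 CPM in Control before and 56.7, 60.0 and 64.1 CPM after insulin. In DKD it held 51.7, 54.1, 53.2 and 46.0 CPM before and 53.2, 57.3 and 58.4 CPM after insulin. Its Control samples did not overlap and its DKD samples did, and the log2 fold changes were 0.23 ± 0.096, adjusted p = 0.0729 in Control and 0.14 ± 0.098, adjusted p = 0.364 in DKD.

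Of the GSK3 kinases, which AKT inhibits, Gsk3a was called in no comparison. It held 106, 109, 81.4 and 76.8 CPM in Control before and 89.4, 81.5 and 60.0 CPM after insulin (-0.27 ± 0.13, adjusted p = 0.141). In DKD it held 110.0, 93.7, 111 and 84.2 CPM before and 92.5, 72.4 and 83.6 CPM after insulin (-0.25 ± 0.13, adjusted p = 0.2). Samples overlapped in both, and 28.3% of its exon bases are shared with the antisense gene 9130221H12Rik, at a mean of 0.846 CPM. Gsk3b held 146, 144, 153 and 148 CPM in basal DKD and 155, 189.5, 169 and 216 CPM in basal Control. All DKD samples lay below all Control samples (-0.31 ± 0.081, adjusted p = 0.0059), and the call was lost without Control basal replicate 4 (-0.21, adjusted p = 0.0532) and when only the groups compared entered the fit (-0.31, adjusted p = 0.0731). With insulin it held 171, 175 and 194 CPM in Control and 148, 161 and 158 CPM in DKD, and it was called by insulin in 1 genotype, FoxK1 KD, where it fell (-0.37 ± 0.081, adjusted p = 0.00074).

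**Figure D5:**
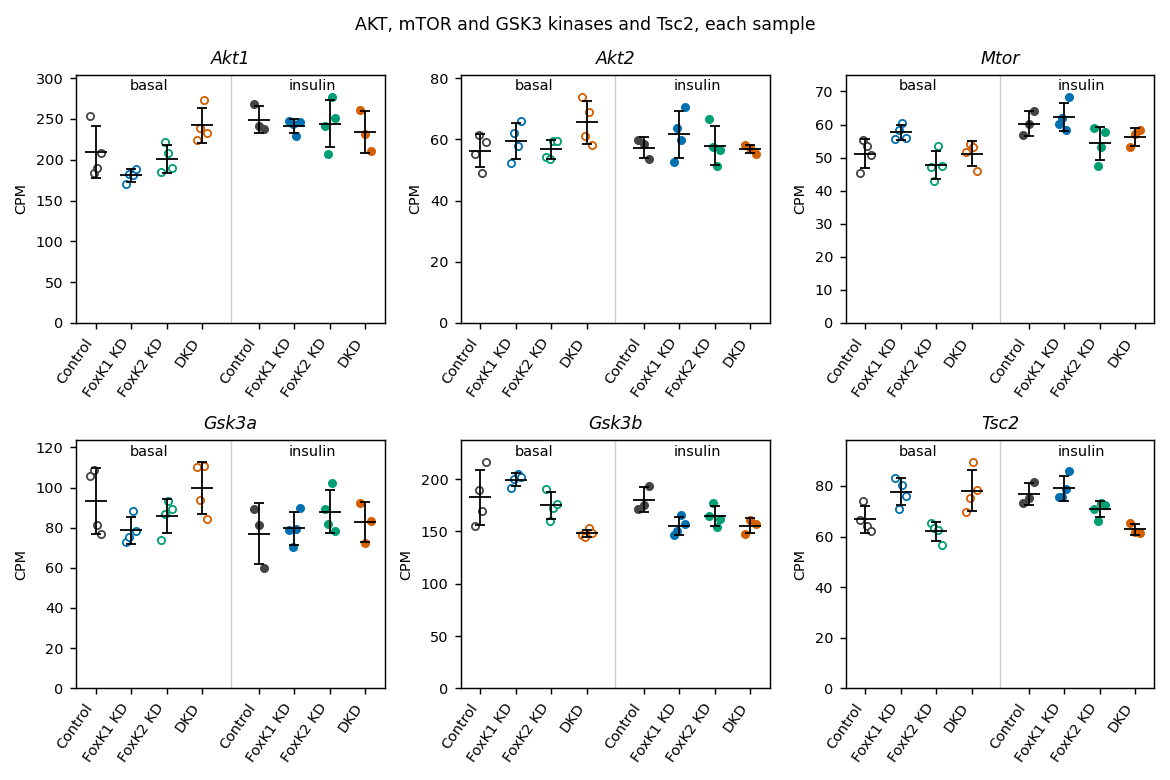
Normalised level in CPM (vertical axes, starting at 0) of Akt1, Akt2, Mtor, Gsk3a, Gsk3b and Tsc2 in each of the 30 samples, by genotype and insulin state; points are samples (open basal, filled insulin) and lines are group means with bars of 1 SD. Akt1 means run from 181 ± 7.58 CPM in FoxK1 KD basal to 249 ± 16.8 CPM in Control with insulin, and Gsk3b lies at 148 ± 3.79 CPM in DKD basal against 183 ± 26.4 CPM in Control basal.

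Besides Akt2, Mtor, Gsk3a and Nras, the tested members called in no comparison were Pdpk1, which encodes the kinase PDK1, Rictor, Rheb, the S6 kinase gene Rps6kb1 and Phlpp1, a phosphatase that acts on AKT. These 9 had no call in 13 comparisons, and the other 25 (73.5%) had at least 1, as had 59.6% of all genes.

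A further 64 tested genes of the same pathways, out of 68 listed, were counted beside the members. Insulin raised 10 and lowered 10 of them in Control, raised 13 and lowered 16 in FoxK1 KD, raised 13 and lowered 15 in FoxK2 KD, and raised 7 and lowered 8 in DKD. Of all genes, insulin raised 12.4% and lowered 13.1% in Control, and raised 16.2% and lowered 15.4% in FoxK1 KD. It raised 14.4% and lowered 13.7% of all genes in FoxK2 KD, and raised 8.31% and lowered 7.99% in DKD. In Control the widest rises were those of Sgk2 (1.76 ± 0.51, adjusted p = 0.0099), at a low level of 0.773 CPM before and 2.65 CPM after insulin, the AKT-binding pseudokinase Trib3 (1.55 ± 0.16, adjusted p = 4.4e-09) and the cap-binding factor Eif4e (0.71 ± 0.086, adjusted p = 1.1e-07). The widest falls were those of the initiation factor Eif4b (-0.92 ± 0.071, adjusted p = 1e-11), the docking protein Gab1 (-0.72 ± 0.12, adjusted p = 2.8e-05) and the translation repressor Pdcd4 (-0.70 ± 0.091, adjusted p = 4.1e-07). In DKD the widest rises were those of Sgk2 (2.32 ± 0.51, adjusted p = 0.0016), Trib3 (1.28 ± 0.17, adjusted p = 2.2e-06) and the Rag GTPase Rragb (0.48 ± 0.16, adjusted p = 0.0377). The widest falls there were those of Eif4b (-0.97 ± 0.072, adjusted p = 4.3e-12), the RAS relative Rras (-0.70 ± 0.14, adjusted p = 0.00032) and Gab1 (-0.49 ± 0.12, adjusted p = 0.0033).

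Without insulin, double knockdown raised 2 of these 64 genes and lowered 11, beside 10.3% of all genes higher and 10.8% lower. The 2 that rose were Mapkap1, an mTORC2 subunit (0.54 ± 0.10, adjusted p = 0.00022), and Pdcd4 (0.34 ± 0.081, adjusted p = 0.0024). The widest falls were those of the phosphatase subunit Ppp2cb (-0.49 ± 0.12, adjusted p = 0.0034), the RAS GTPase-activating protein Rasa1 (-0.49 ± 0.087, adjusted p = 0.00014) and the kinase Rps6ka2 (-0.46 ± 0.16, adjusted p = 0.041). FoxK1 KD raised 3 and lowered 3 of the 64 without insulin and raised 1 and lowered 2 with it. Of all genes, FoxK1 KD raised 3.39% and lowered 4.71% without insulin, and raised 1.86% and lowered 1.72% with it. With insulin, FoxK2 KD and DKD each raised 1 of these 64 genes. In FoxK1 KD, FoxK2 KD and DKD alike, the gene raised after insulin was Pdcd4. Its log2 fold change was 0.67 ± 0.093, adjusted p = 1.7e-05 in FoxK1 KD and 0.50 ± 0.092, adjusted p = 0.0242 in FoxK2 KD. In DKD it was 0.72 ± 0.097, adjusted p = 1.3e-05. Of all genes after insulin, 0.0088% were higher and 0.0176% lower in FoxK2 KD, and 0.871% and 0.343% in DKD.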

How the data were processed

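Gene counts of AML12 hepatocytes were analysed in 30 samples of 8 groups. The deposited files hold raw read counts per Ensembl gene, and per the labels the authors used CASAVA 1.8, STAR 2.4.2a, featureCounts and GRCm38.p4; strand and multi-mapping settings were not given in the sources used here. Libraries held 2141460 to 5668270 counts, which limits precision for low genes. Identifiers were matched to GENCODE M21 without version (48435 of 49089).

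Counts were filtered with filterByExpr, scaled by TMM and tested in 1 fit of all samples with edgeR 4.0.16 (R 4.3.3, quasi-likelihood test, Benjamini-Hochberg over 11368 genes, adjusted p under 0.05). A standard error was taken as the size of the fold change (log2) over the root of its F statistic, and CPM uses TMM library sizes. Alternatives were DESeq2 1.42.0, limma 3.58.1, other filters and scalings, a spline of 4 degrees of freedom on GC content and length, a replicate block, only the groups compared, the study's threshold of 0.25 (also with a 1.5-fold minimum) and leaving out each library. The scripts were tested on simulated data. Over 42 pairs of replicates, counts differed by more than sampling noise (lowest chi-square per degree of freedom 1.70).

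Members and gene lists were chosen with earlier results of these data known. Genes given by sample were the called members with the largest changes in the comparisons of DKD or Control, at most 6 each, with Akt1, Akt2, Mtor, Gsk3a, Gsk3b and Sgk1 whatever their values. Other genes of the route were named as the 3 called with the largest change in each direction, and the 3 pseudogenes and the FoxK values of Pdcd4 were named after their values were seen.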

Additional observations from a re-analysis of the deposited data

Results flagged for a closer look

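Of 204 sets of 4 replicates tested, 1 for each tested member in each group of 4, 5 held a sample that lay far from the other 3, by a gap above Dixon's 95% critical value of 0.829 as a share of the range. Chance flags about 1 in 20 such sets. Pik3ca stood at 177.5 CPM in FoxK2 KD basal replicate 1 (155.0 to 155.6 in the others), and Rheb at 53.8 CPM in FoxK1 KD insulin replicate 4 (68.6 to 69.8). In FoxK2 KD with insulin, Pik3r3 stood at 42.5 CPM in replicate 3 (58.4 to 59.7), Sgk1 at 50.3 CPM in replicate 2 (39.4 to 40.6) and Nras at 196.6 CPM in replicate 1 (225.0 to 229.6).

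The effect of insulin differed between DKD and Control for Deptor (difference of log2 fold changes 0.89) and Tsc2 (-0.51), by the interaction term of the edgeR fit. The Deptor call held under every alternative, and the Tsc2 call was lost under 11 of them. Both differences run across the divide between libraries and cannot be told apart from it.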

How the results depend on the processing

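Of 61 calls of a member in a comparison, 30 held under every alternative and 0 reversed. Calls lost numbered 0 with DESeq2, 0 with limma, 0 with at least 10 counts in every sample, 3 without TMM, 9 with at least 1 count in any sample, 13 with the GC and length trend removed, 11 with only the groups compared, and 24 in at least 1 fit that left out a library. The causes were not tested. Sequencing depth limits what can be said of low genes such as Pik3cd.

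Counts of members called moved by more than 1.5 times as follows. With only the groups compared, they were 1 for basal FoxK1 KD, 5 for basal DKD, 5 for insulin in Control and 1 for the DKD difference of insulin effects. With the GC and length trend removed they were 5 for basal DKD and 1 for the DKD difference, with or without the replicate block. With at least 1 count in any sample they were 1 for the FoxK1 KD and 1 for the DKD difference. At an adjusted p below 0.25 they were 14, 2 and 18 for basal FoxK1 KD, FoxK2 KD and DKD, 5, 1 and 5 for the same after insulin, 19, 23 and 14 for insulin in Control, FoxK2 KD and DKD, and 2 for the FoxK1 KD difference. With a 1.5-fold minimum besides, they were 1 for basal FoxK1 KD, 0 for basal DKD, 0 for FoxK1 KD after insulin, 2, 3, 1 and 4 for insulin in FoxK1 KD, FoxK2 KD, DKD and Control, and 1 and 1 for the FoxK1 KD and DKD differences.

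Leaving out 1 library gave 3 to 7, 0 to 0 and 5 to 11 calls for basal FoxK1 KD, FoxK2 KD and DKD, and 0 to 2, 0 to 1 and 2 to 2 after insulin. It gave 12 to 14, 11 to 13, 4 to 8 and 7 to 13 for insulin in FoxK1 KD, FoxK2 KD, DKD and Control, and 0 to 1, 0 to 0 and 1 to 2 for the differences of insulin effects. The libraries that took a count past 1.5 times were Control basal replicate 2 (7 for basal FoxK1 KD, 1 for the FoxK1 KD difference), DKD basal replicate 1 (5 for basal DKD), Control insulin replicate 1 (0) and FoxK1 KD insulin replicates 1 and 3 (1 each) for FoxK1 KD after insulin, FoxK2 KD insulin replicate 3 (1 for FoxK2 KD after insulin) and DKD insulin replicate 2 (4 for insulin in DKD). For the DKD difference it was 1 without any of the 7 libraries that ended the Tsc2 call. Foxk1 in DKD after insulin went from -0.62 to -0.61 with only the groups compared and lay between -0.79 and -0.54 without single libraries. It lost its call in that fit and without Control insulin replicate 1 or 2 or DKD insulin replicate 1 or 2.

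Samples with the same replicate number did not deviate together (mean correlation -0.0134 over 99 pairs, 8 above 0.1, against 0.0043 for other numbers), so the numbers were not treated as pairs. A replicate block lost 5 calls and left 1 member called for FoxK1 KD after insulin.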
